A study of Mus musculus with 16 samples.

Results

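Stereocilia are the actin-filled protrusions of the inner ear hair cell. Espn, Pls1 and Fscn2 encode proteins that bundle the actin core, Whrn and Eps8 encode proteins of the stereocilia tip, and Ptprq and Strc encode proteins of the stereocilia surface. These are 7 of the 9 genes of a list of actin core, tip and surface-link genes, out of 22180 genes measured. A gene was taken from the rows of the table that carry its symbol alone. For Eps8l2, a relative of Eps8, the 1 row carries a second symbol as well, and no row is named for Grxcr1, whose protein shapes the growing bundle, so neither was analysed here.

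In hair cells the filaments of a stereocilium are packed in parallel by espins, plastins and fascins. At the tip, the PDZ scaffold whirlin (Whrn) and the actin-capping and bundling protein Eps8 are carried by the motor Myo15, and mice that lack any of these keep short stereocilia. The receptor phosphatase Ptprq belongs to the shaft connectors near the base, and stereocilin (Strc) in outer hair cells joins the tops of neighbouring stereocilia and attaches the tallest to the tectorial membrane. Several of these proteins are not restricted to hair cells: plastin 1 and Eps8 also build the microvilli of the gut lining.

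The cells came from the mouse embryonic stem cell line iGPA-Myo7a:mVenus, in which doxycycline (Dox) turns on Gfi1, Pou4f3 and Atoh1 together and mVenus reports Myo7a. Floating embryoid bodies (EBs) received Dox alone or Dox with retinoic acid (RA) from day 4, and the mVenus-positive cells were sorted at day 8 or day 12, after 4 or 8 days of treatment. These sorted cells are the induced hair cell-like cells, or iHCs. Control EBs of the same line and days had neither drug and were not sorted. Each of the 4 iHC groups (Dox or Dox+RA, at either day) has 3 arrays and each control group has 2. Every difference from control EBs therefore holds Dox, the sort and, in the Dox+RA groups, RA together. All groups come from 1 line, and the EBs hold many cell types. In such bulk samples, fewer cells of a type and less RNA per cell cannot be told apart.

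All values are log2 signals after robust multi-array averaging (RMA), so a difference of 1 is a doubling of signal, and levels are not compared between genes. A difference was called where limma's moderated test had an adjusted p (Benjamini-Hochberg, over all 22180 genes) under 0.05. A difference is given ± its standard error from limma, a mean ± its SD, and n counts arrays. Replicate arrays correlated at 0.982 to 0.995 over all genes. The induced genes set the groups apart: Atoh1 had group means of 4.89 and 5.03 in control EBs and 10.93 to 11.25 in iHCs.

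The mean signal of 16 hair cell marker genes was 4.47 to 4.67 on the control arrays and 6.65 to 7.52 on the iHC arrays. Otof and Slc17a8, which serve transmitter release in hair cells, were both higher in all 4 iHC groups than in the EBs of the same day. The outer hair cell gene Ocm had group means of 3.26 to 3.54 and was not called in any of these 4 comparisons. Markers of other cells moved with the same comparisons, though the members of a list did not all move together. The mean of 11 neuron markers was 4.56 to 5.05 in EBs and 6.38 to 7.08 in iHCs, and that of 6 Merkel cell markers 6.45 to 6.72 and 8.29 to 8.96. The mean of 7 mesenchyme markers was 8.99 to 9.96 in EBs and 4.45 to 5.15 in iHCs, and that of 8 visceral endoderm and yolk sac markers 6.42 to 7.14 and 4.78 to 5.78. The 4 measured podocyte markers stood at 6.48 to 6.77 in EBs and at 5.28 to 6.14 in iHCs, and the 10 supporting cell markers at 5.85 to 6.15 and 5.95 to 6.51. The means of the 12 brush border markers were close to level, at 4.08 to 4.20 and 4.06 to 4.32. So were those of the 5 measured photoreceptor markers, at 4.24 to 4.41 and 4.29 to 4.61. These means join members that moved apart (named after their values were seen). At day 12 the neuron marker Stmn2 averaged 6.10 in EBs, 5.99 in Dox and 5.70 in Dox+RA iHCs, and Syt1 4.77, 9.14 and 9.46. At day 8 the Merkel marker Krt8 averaged 9.84 in EBs and 9.26 in Dox iHCs, and Rab3c 3.16 and 7.84. In the same groups the supporting cell markers Sox9 and Sox2 went from 7.11 to 6.08 and from 8.21 to 9.28. The podocyte markers Synpo and Podxl went from 5.34 to 6.23 and from 9.35 to 7.07. The brush border markers Ush1c and Cdx2 went from 4.70 to 5.81 and from 5.81 to 4.43. An RMA table has no zero, so none of the markers is at 0. The part of these cells in the results below was not tested.

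Against the control EBs of the same day, Espn was called in every iHC group, the other genes in some. At day 8 with Dox, Espn was called higher and the other 6 genes were not called. Among all genes 34.6% were called in that comparison, 15.7% higher and 18.9% lower. At day 12 with Dox, 5 genes were higher (Espn, Pls1, Whrn, Ptprq and Strc), and Eps8 was lower, where 40.8% of all genes were called, 19.2% higher and 21.7% lower. With Dox and RA, Espn, Pls1 and Eps8 were higher at day 8 (41.6% of all genes called, 19.6% higher and 22% lower). At day 12 Espn, Pls1, Whrn and Ptprq were higher and Eps8 was lower (44.8% of all genes called, 22.4% in each direction). The median log2 difference of the 7 genes was 0.19 and 0.43 with Dox at the 2 days and 0.46 and 0.89 with Dox and RA, against 0.02, 0.02, 0.05 and 0.07 for all genes. Counted by arrays that do not overlap, the iHCs lay above the EBs in 2 of the 7 genes with Dox at day 8 (28.2% of all genes; 27.2% lay below) and in 6 at day 12, with 1 below (29.6% and 28.7% of all genes). With Dox and RA they lay above in 3 at day 8 (33% of all genes; 28.1% below) and in 5 at day 12, with 1 below (36.1% and 28.5%). The Dox and the Dox+RA comparisons of a day share their 2 control arrays.

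**Figure D1:**
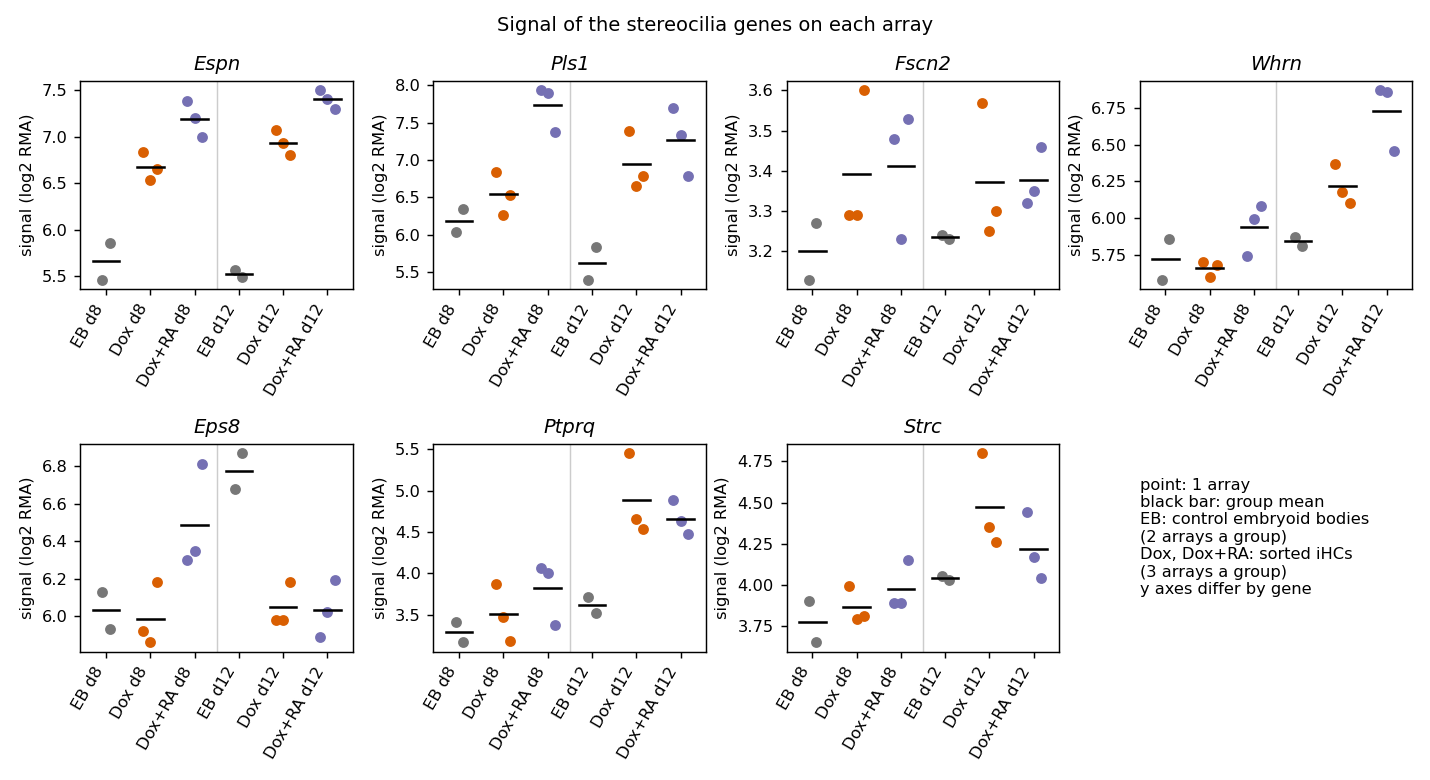
Log2 RMA signal (y axis, scaled separately for each gene) of the 7 genes on each of the 16 arrays, by group (x axis); points are arrays and black bars are group means. Espn separates all iHC arrays from all control arrays, Ptprq is highest in the day 12 iHCs, and Eps8 is highest in day 12 control EBs and on 1 Dox+RA day 8 array.

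Espn encodes espin, the actin cross-linker whose loss shortens and thins hair bundles. It lies on chromosome 4 (152120331-152152414, GRCm38.p6) and overlaps the pseudogene Gm17852 in RefSeq. Its signal was 5.46 and 5.85 in control EBs at day 8 and 6.84, 6.53 and 6.65 in Dox iHCs. At day 12 it was 5.56 and 5.49 in control EBs and 7.07, 6.93 and 6.80 in Dox iHCs. The Dox+RA iHCs had 7.39, 7.20 and 7.00 at day 8 and 7.50, 7.41 and 7.30 at day 12. Every iHC array was above every control array at both days. The difference from EBs was 1.02 ± 0.14 with Dox at day 8 (adjusted p = 4.2e-05) and 1.41 ± 0.14 at day 12 (adjusted p = 1.1e-06). With Dox and RA it was 1.54 ± 0.14 at day 8 (adjusted p = 4.4e-07) and 1.88 ± 0.14 at day 12 (adjusted p = 4.5e-08), a 3.69-fold higher signal. These 4 calls kept their side of the threshold under every alternative run. In order of mean the groups were control EBs of day 12 (5.52 ± 0.05, SD, n = 2) and day 8 (5.65 ± 0.28), then Dox day 8 (6.67 ± 0.16, SD, n = 3), Dox day 12 (6.93 ± 0.14), Dox+RA day 8 (7.19 ± 0.20) and Dox+RA day 12 (7.41 ± 0.10). The arrays of neighbours in this order overlapped at every step but that from EBs to Dox day 8.

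The RefSeq promoter entries hold 3 transcript starts for Espn, on the minus strand of GRCm38.p6. The array has 1 row for the gene, so the signal cannot be assigned to a start. The 250 bases before each start are shown because Espn alone of the 7 genes was called in all 4 comparisons with control EBs, and Atoh1, a basic helix-loop-helix factor that binds E-boxes with an E protein, is 1 of the induced factors. The window before Pls1, a bundling gene of the core that was called in 3 of the 4, is set beside them. Capitals mark the E-box forms CAGCTG and CAGATG, searched on both strands. The first window is chr4:152152390-152152639, the second chr4:152136326-152136575 and the third chr4:152128926-152129175. That of Pls1 is chr9:95845280-95845529, also on the minus strand. The listed ends of the genes, 152152414 for Espn and 95845306 for Pls1, fall inside the first Espn window and the Pls1 window. The entries therefore need not hold every start.
Espn start 1: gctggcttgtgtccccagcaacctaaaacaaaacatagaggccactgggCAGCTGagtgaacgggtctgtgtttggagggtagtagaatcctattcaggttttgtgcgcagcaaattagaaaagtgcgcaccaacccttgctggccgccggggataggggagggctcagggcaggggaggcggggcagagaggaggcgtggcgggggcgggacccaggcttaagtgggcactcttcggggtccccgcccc
Espn start 2: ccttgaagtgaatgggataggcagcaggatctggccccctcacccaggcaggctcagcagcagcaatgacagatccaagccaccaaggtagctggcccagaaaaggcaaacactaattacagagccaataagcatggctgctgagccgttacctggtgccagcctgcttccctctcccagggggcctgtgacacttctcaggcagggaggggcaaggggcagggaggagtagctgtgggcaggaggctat
Espn start 3: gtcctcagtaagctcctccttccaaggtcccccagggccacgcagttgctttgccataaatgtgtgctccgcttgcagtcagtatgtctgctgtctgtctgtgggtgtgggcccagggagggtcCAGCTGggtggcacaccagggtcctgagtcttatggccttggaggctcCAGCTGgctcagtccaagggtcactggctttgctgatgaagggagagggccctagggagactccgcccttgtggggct
Pls1: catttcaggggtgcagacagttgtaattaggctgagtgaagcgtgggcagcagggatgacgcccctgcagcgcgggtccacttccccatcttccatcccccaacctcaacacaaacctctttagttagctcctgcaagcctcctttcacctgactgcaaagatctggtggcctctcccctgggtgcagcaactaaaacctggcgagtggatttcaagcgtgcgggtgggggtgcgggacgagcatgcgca
The first Espn window holds CAGCTG beginning 201 bases before the start, and the third holds it at 126 and at 78 bases. Neither form is in the second window, nor in the windows of Pls1, Fscn2, Whrn and Strc. Of 32851 RefSeq promoter windows of this length in mouse, 13.0% hold CAGCTG, 14.4% hold CAGATG and 25.5% hold either. A match is a run of letters and no evidence of binding. Of the 7 genes 5 had a promoter entry, and none was given for Eps8 and Ptprq.

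Pls1 encodes plastin 1, also called fimbrin, a cross-linker of the stereocilia core. It lies on chromosome 9 (95752642-95845306). Its signal was 6.03 and 6.35 in control EBs at day 8 and 6.84, 6.26 and 6.53 in Dox iHCs, which overlap. In Dox+RA iHCs of day 8 it was 7.93, 7.90 and 7.37, above all of these. At day 12 control EBs had 5.40 and 5.84, Dox iHCs 7.39, 6.65 and 6.78, and Dox+RA iHCs 7.70, 7.34 and 6.78. Both iHC groups of day 12 were above the EBs and overlapped each other. The difference from EBs was 0.35 ± 0.28 with Dox at day 8 (adjusted p = 0.38) and 1.33 ± 0.28 at day 12 (adjusted p = 0.0012). With Dox and RA it was 1.54 ± 0.28 at day 8 (adjusted p = 0.00032) and 1.66 ± 0.28 at day 12 (adjusted p = 0.00016). The spread was wide in the Dox+RA iHCs of day 12, where the mean was 7.27 ± 0.46 (SD, n = 3). All 3 called differences kept their side of the threshold under every alternative run.

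Fscn2 encodes fascin 2, a bundling protein of hair cells and photoreceptors. It lies on chromosome 11 (120360165-120368173). All 16 arrays fell between 3.13 and 3.60. Group means ran from 3.20 ± 0.09 (SD, n = 2) in day 8 EBs to 3.41 ± 0.16 (SD, n = 3) in day 8 Dox+RA iHCs. Its differences from EBs were 0.19 and 0.14 with Dox at the 2 days and 0.21 and 0.14 with Dox and RA, and none was called (adjusted p from 0.21 to 0.44), although the iHC arrays lay above the EB arrays in 3 of the 4 comparisons. The 95% intervals of these 4 differences reached at most 0.48 on the log2 scale. Every group mean of Fscn2 lay under 5.18, the median of all gene values, and so did those of Ptprq and Strc. The highest were 3.41, 4.88 and 4.47. RMA can compress changes at low signal, so such intervals bound the array signal and not the transcript.

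Both bundling families had relatives that fell in iHCs. Pls3, the plastin of many non-muscle tissues, was 7.59 and 7.70 in day 8 EBs and 5.02, 5.69 and 5.76 in Dox iHCs. At day 12 it was 7.65 and 7.83 in EBs, 4.29, 4.52 and 4.91 in Dox iHCs and 4.46, 4.45 and 4.33 in Dox+RA iHCs. Its difference from EBs was -2.15 ± 0.21 with Dox at day 8 and -3.33 ± 0.21 with Dox and RA at day 12 (adjusted p = 1.3e-06 and 7.0e-09). Lcp1, the plastin of blood cells, fell in all 4 comparisons, by 1.52 to 1.78. Fscn1, the widely expressed fascin, was lower by 0.89 with Dox at day 8 (adjusted p = 0.016) and by 1.70 with Dox and RA at day 12 (adjusted p = 8.0e-05). Fscn3, the testis fascin, was not called in any of the 4. The falls of these plastins and Fscn1 stand in the same comparisons as the drop of the mesenchyme markers, and the share of those cells in them was not tested. Espnl, the espin-like gene of stereocilia, was called at day 12, at 0.54 ± 0.16 with Dox (adjusted p = 0.012) and 0.57 ± 0.16 with Dox and RA (adjusted p = 0.0075), and not at day 8, at 0.11 and 0.26. The interaction of its difference from EBs with the day was not called (adjusted p = 0.42 with Dox and 0.61 with Dox and RA).

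**Figure D2:**
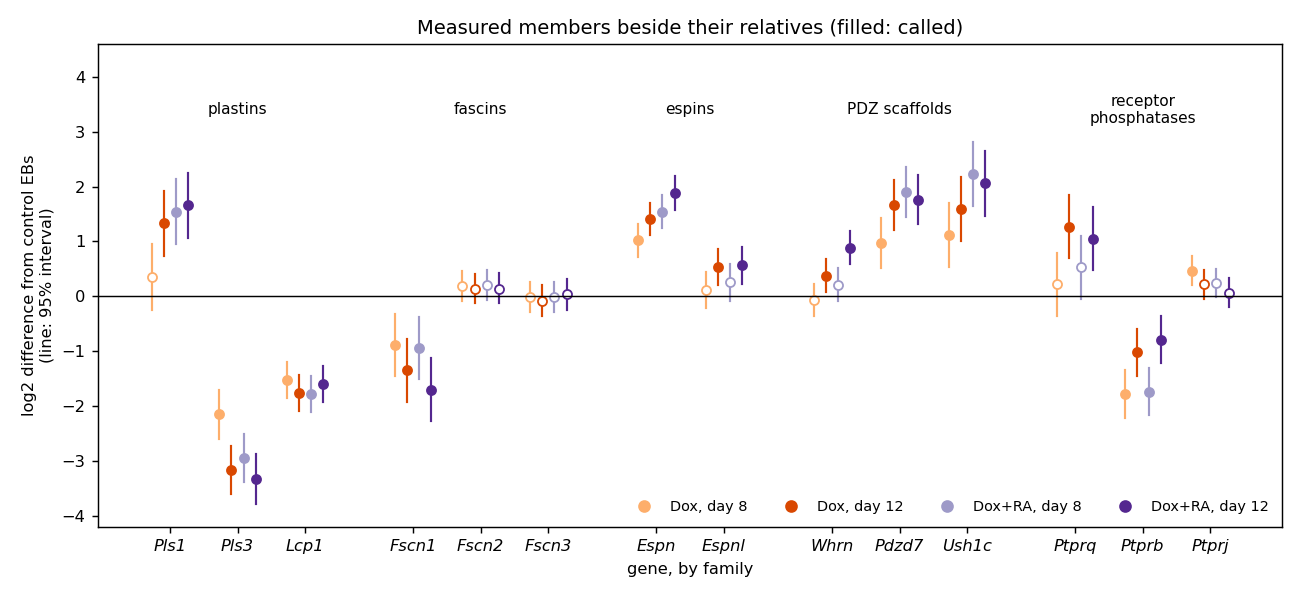
Log2 difference from control EBs of the same day (y axis; points, with 95% intervals as lines) for measured members and their relatives, by family (x axis); colours are the 4 iHC groups and filled points are called. Pls1 lies above 0 where Pls3 and Lcp1 lie below it, and the Fscn2 points stay within 0.14 to 0.21.

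Whrn encodes whirlin, the scaffold of the tip complex and of the ankle links. It lies on chromosome 4 (63414908-63496083). At day 8 its signal was 5.58 and 5.86 in control EBs, 5.70, 5.60 and 5.68 in Dox iHCs and 5.74, 5.99 and 6.08 in Dox+RA iHCs, and the iHCs overlapped the EBs. At day 12 it was 5.87 and 5.81 in EBs, 6.37, 6.18 and 6.10 in Dox iHCs and 6.87, 6.86 and 6.46 in Dox+RA iHCs, and the 3 groups did not overlap. The difference from EBs was -0.06 ± 0.14 (adjusted p = 0.79) and 0.21 ± 0.14 (adjusted p = 0.25) at day 8, with Dox and with Dox and RA. At day 12 it was 0.38 ± 0.14 with Dox (adjusted p = 0.041) and 0.89 ± 0.14 with Dox and RA (adjusted p = 8.1e-05). The day 12 call with Dox was lost with a variance trend and without either control array, Dox replicate 1 or Dox replicate 2, with adjusted p of up to 0.17. Its PDZ relatives at the ankle links and the tip link were called higher in all 4 comparisons: Pdzd7, by 0.98 to 1.90, and the harmonin gene Ush1c, by 1.12 to 2.23.

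Eps8 moved differently from the others. It lies on chromosome 6 (137477245-137649397). Control EBs had 6.13 and 5.93 at day 8 and 6.68 and 6.87 at day 12. Dox iHCs had 5.92, 5.86 and 6.18 at day 8 and 5.98, 5.98 and 6.18 at day 12. Dox+RA iHCs had 6.30, 6.35 and 6.81 at day 8 and 5.89, 6.02 and 6.19 at day 12. The Dox+RA arrays of day 8 lay above the day 8 EBs, while all 6 iHC arrays of day 12 lay below the day 12 EBs. In the EBs alone Eps8 rose from day 8 to day 12 by 0.75 ± 0.17 (adjusted p = 0.021), the only call among the 7 genes over time in EBs, where 3.75% of all genes were called, 2.33% higher and 1.42% lower. Without overlap of the EB arrays, 3 of the 7 genes (Eps8, Ptprq and Strc) lay higher at day 12 and Pls1 lower, against 23.4% and 22.1% of all genes. In Dox iHCs the same step was 0.06 ± 0.14 (adjusted p = 0.86). The difference from EBs was accordingly -0.04 ± 0.16 with Dox at day 8 (adjusted p = 0.88), -0.73 ± 0.16 at day 12 (adjusted p = 0.0013), 0.46 ± 0.16 with Dox and RA at day 8 (adjusted p = 0.027) and -0.74 ± 0.16 at day 12 (adjusted p = 0.001). The rise with Dox and RA at day 8 was not called in the fit on those 2 groups alone, without control EB day 8 replicate 2 or without Dox+RA day 8 replicate 3 (adjusted p of up to 0.21). The rise in EBs was not called without control EB day 8 replicate 2 or without either day 12 EB array (up to 0.23).

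Ptprq encodes a receptor phosphatase of the shaft connectors. It lies on chromosome 10 (107514363-107720098) and overlaps the long non-coding RNA gene Gm36177 in RefSeq. At day 8 its signal was 3.42 and 3.17 in control EBs, 3.87, 3.48 and 3.18 in Dox iHCs and 4.07, 4.01 and 3.38 in Dox+RA iHCs, and both iHC groups overlapped the EBs. At day 12 it was 3.71 and 3.52 in EBs, 5.45, 4.66 and 4.54 in Dox iHCs and 4.88, 4.63 and 4.47 in Dox+RA iHCs, all above the EBs. The difference at day 12 was 1.27 ± 0.27 with Dox (adjusted p = 0.0012), a 2.41-fold higher signal, and 1.05 ± 0.27 with Dox and RA (adjusted p = 0.0046). At day 8 it was 0.22 ± 0.27 (adjusted p = 0.60) and 0.53 ± 0.27 (adjusted p = 0.13). Without Dox+RA day 8 replicate 3, the lowest array of its group, the second was 0.75 and called (adjusted p = 0.038). Of its relatives, Ptprb, the receptor phosphatase of blood vessel endothelium, was lower in all 4 comparisons, by 0.79 to 1.78, and Ptprj was called only with Dox at day 8 (0.47 ± 0.12, adjusted p = 0.0073).

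Strc encodes stereocilin, and its gene on chromosome 2 (121363248-121381370) overlaps Ckmt1 in RefSeq. At day 8 its signal was 3.65 to 3.90 in EBs, 3.79 to 3.99 in Dox iHCs and 3.89 to 4.15 in Dox+RA iHCs. At day 12 it was 4.05 and 4.03 in EBs, 4.80, 4.35 and 4.26 in Dox iHCs and 4.44, 4.17 and 4.04 in Dox+RA iHCs. The Dox arrays of day 12 lay above the EBs, and the Dox+RA arrays overlapped them. The difference was 0.43 ± 0.16 with Dox (adjusted p = 0.04) and 0.18 ± 0.16 with Dox and RA (adjusted p = 0.39). The call with Dox was lost in the fit on those 2 groups alone and without Dox day 12 replicate 1 or either control array, with adjusted p of up to 0.17. At day 8 neither iHC group was called (adjusted p = 0.74 and 0.35).

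**Figure D3:**
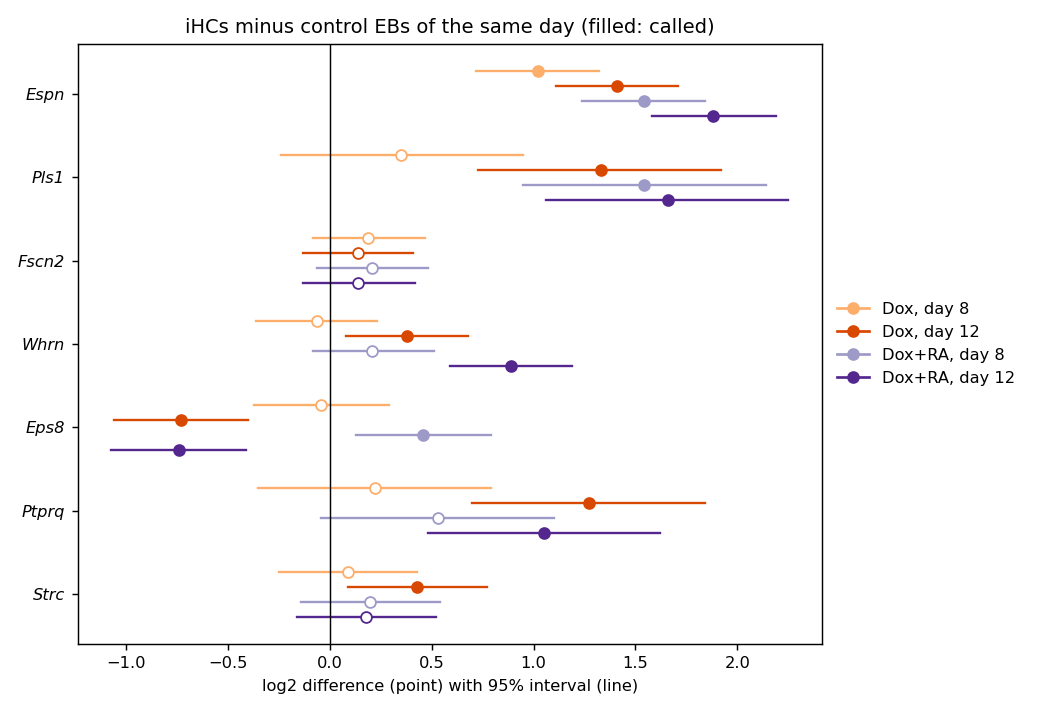
Log2 difference from control EBs of the same day (x axis; points, with 95% intervals as lines) of the 7 genes (y axis) in the 4 iHC groups (colours); filled points are called. Espn is filled in all 4 groups, and Eps8 is to the right of 0 with Dox and RA at day 8 and to the left of 0 in both day 12 groups.

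The effect of adding RA was read from iHCs of 1 day, with against without RA. At day 8 Pls1 was higher by 1.19 ± 0.25 (adjusted p = 0.013), a 2.28-fold higher signal, and Espn by 0.52 ± 0.13 (adjusted p = 0.029). These were 2 of the 7 genes, where 4.93% of all genes were called, 2.05% higher and 2.89% lower. In 4 of the 7 genes (Espn, Pls1, Whrn and Eps8) every Dox+RA array lay above every Dox array, as in 11.9% of all genes, with 12% the other way. Eps8 differed by 0.50 ± 0.14 with no call (adjusted p = 0.053). It was called with the replicate number as a block in the fit (adjusted p = 0.0035), array weights (0.018), median centring (0.031) and the dim filter (0.04). Whrn differed by 0.28 ± 0.13 (adjusted p = 0.24), Ptprq by 0.31 ± 0.24 (adjusted p = 0.56), Strc by 0.11 ± 0.14 (adjusted p = 0.75) and Fscn2 by 0.02 ± 0.11 (adjusted p = 0.96). Without Dox+RA replicate 1 or 2, or without Dox replicate 2 or 3, neither Pls1 (adjusted p of up to 0.08) nor Espn (up to 0.14) was called, while over all alternatives the differences stayed at 1.05 to 1.38 and 0.42 to 0.62. The Espn call was lost as well in the fit on those 2 groups alone.

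At day 12 none of the 7 genes was called for RA in the fit without a replicate block. In that fit 0.924% of all genes were called, 0.383% higher and 0.541% lower. Of the 7, 2 (Espn and Whrn) had an unadjusted p under 0.05. The share of all genes with such a p was not counted, so counts by unadjusted p here and below have no background. Whrn differed by 0.51 ± 0.13 (adjusted p = 0.074) and Espn by 0.47 ± 0.13 (adjusted p = 0.11), and in both genes every Dox+RA array was above every Dox array, which 9.78% of all genes show (6.07% the other way). With the replicate block both were called, Whrn with adjusted p = 0.044 and Espn with adjusted p = 0.039, and both were called with array weights (0.012 and 0.04). Whrn was also called without Dox replicate 1 (0.047) or Dox+RA replicate 3 (0.016). Pls1 differed by 0.33 ± 0.25 (adjusted p = 0.65), with a 95% interval from -0.20 to 0.86. Ptprq and Strc pointed the other way, at -0.22 ± 0.24 and -0.25 ± 0.14, with no call (adjusted p = 0.77 and 0.51). The test of whether the effect of RA differed between the days called none of the 7 genes with limma, 2 of which (Pls1 and Eps8) had an unadjusted p under 0.05, and 2 genes in all (0.00902%). For Pls1 that difference was -0.86 ± 0.35 (adjusted p = 0.81) and for Eps8 -0.51 ± 0.20 (adjusted p = 0.80).

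Over time, Whrn, Ptprq and Strc rose in Dox iHCs from day 8 to day 12, by 0.56 ± 0.13 (adjusted p = 0.014), 1.37 ± 0.24 (adjusted p = 0.0042) and 0.61 ± 0.14 (adjusted p = 0.017). In this comparison 8.05% of all genes were called: 3.39% of all genes were called higher and 4.66% lower. In all 3 genes each day 12 array was above each day 8 array, which 11% of all genes show (12.2% the other way). Espn (0.26 ± 0.13, adjusted p = 0.25) and Pls1 (0.40 ± 0.25, adjusted p = 0.40), the genes that RA raised at day 8, were not called. The Whrn and Strc calls were lost without Dox day 12 replicate 1 or without Dox day 8 replicate 2, with adjusted p of up to 0.079 and 0.089. Strc also lost it without Dox day 8 replicate 3 and in the fit on the 2 groups. That of Ptprq kept its side of the threshold under every alternative in which it was tested.

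In Dox+RA iHCs Whrn rose by 0.79 ± 0.13 (adjusted p = 0.0028), 1 of 7 genes, where 4.38% of all genes were called, 1.78% higher and 2.61% lower. Ptprq differed by 0.84 ± 0.24 (adjusted p = 0.063) and Eps8 by -0.45 ± 0.14 (adjusted p = 0.086), each with no overlap between the days (12.8% of all genes lie higher without overlap and 9.96% lower). With the replicate block both were called, Ptprq at adjusted p = 0.00093 and Eps8 at adjusted p = 0.008, as they were with array weights (0.02 and 0.032). Ptprq was called in the fit on those 2 groups too (0.048). Pls1 differed by -0.46 ± 0.25 (adjusted p = 0.36) and Espn by 0.21 ± 0.13 (adjusted p = 0.43). In control EBs the step was 0.12 ± 0.15 for Whrn, 0.32 ± 0.29 for Ptprq and 0.26 ± 0.17 for Strc, with no call.

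Whether the difference from EBs itself changed between the days was tested as an interaction. With Dox, none of the 7 genes was called by limma, and 2.84% of all genes were, 1.03% higher and 1.81% lower. Of the 7 genes 4 had an unadjusted p under 0.05, and the share of all genes with such a p was not counted. Ptprq changed by 1.05 ± 0.38 (adjusted p = 0.18), Pls1 by 0.97 ± 0.39 (adjusted p = 0.25), Eps8 by -0.69 ± 0.22 (adjusted p = 0.12) and Whrn by 0.44 ± 0.20 (adjusted p = 0.31). With Dox and RA, Eps8 was called, at -1.20 ± 0.22 (adjusted p = 0.0078), where 2.62% of all genes were called, 0.956% higher and 1.67% lower. Without control EB day 8 replicate 2 its adjusted p was 0.055. Whrn had 0.68 ± 0.20 (adjusted p = 0.097), which was called with array weights (0.028) and without Dox+RA day 12 replicate 3 (0.024).

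**Figure D4:**
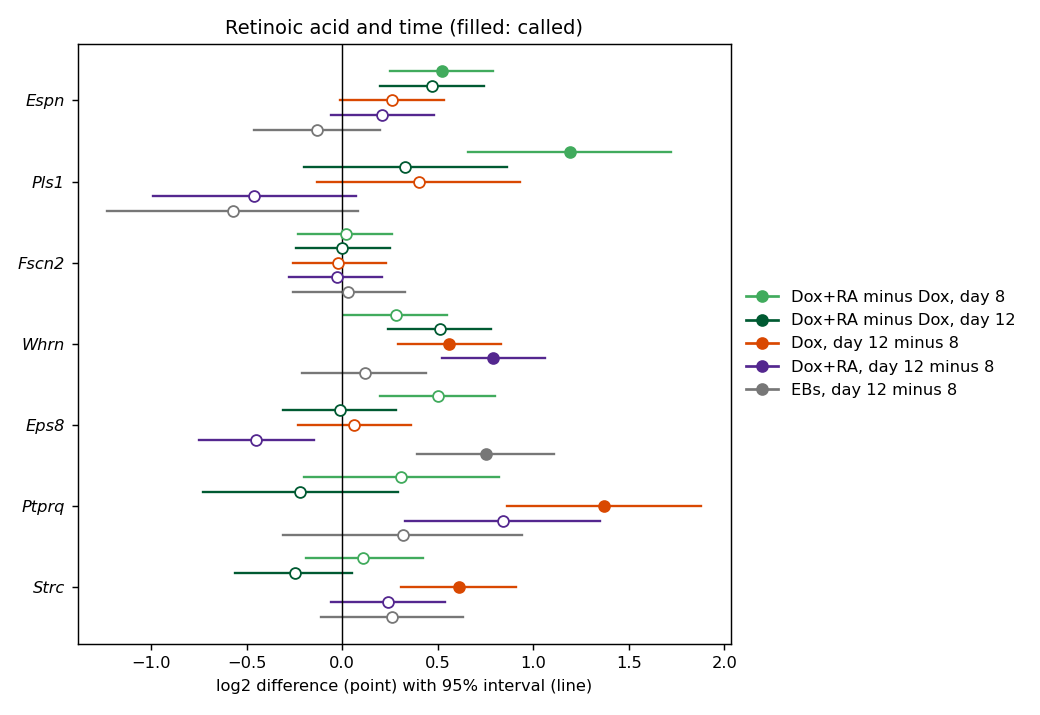
Log2 difference (x axis; points, with 95% intervals as lines) of the 7 genes (y axis) between Dox+RA and Dox iHCs at each day and between the days in Dox iHCs, Dox+RA iHCs and control EBs (colours); filled points are called. Pls1 and Espn are filled for RA at day 8, Whrn, Ptprq and Strc for time in Dox iHCs, Whrn for time in Dox+RA iHCs, and Eps8 for time in EBs.

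The other genes were taken from a list of 52 for stereocilia and the overlying matrix with its attachment, of which 50 were measured. Of these 20 were higher and 7 lower with Dox at day 8, 27 and 8 with Dox at day 12, 28 and 9 with Dox and RA at day 8, and 29 and 6 with Dox and RA at day 12, with medians of 0.28, 0.54, 0.54 and 0.71. Among all genes the shares called higher were 15.7%, 19.2%, 19.6% and 22.4%, and those called lower 18.9%, 21.7%, 22% and 22.4%. By role, the tip link and transduction genes had the highest medians. Of 10 such genes 9 were higher with Dox at day 8, all but the channel gene Tmc1 (0.08, adjusted p = 0.81; singled out after its values were seen), and all 10 were higher in the other 3 comparisons, with medians of 1.74, 2.81, 3.02 and 3.02. Myo7a is among the 10, and the iHCs were sorted on its reporter, so its own difference cannot be told apart from the sort. Without Myo7a, 8 of 9 were higher with Dox at day 8 and all 9 in the other 3, with medians of 1.69, 2.78, 3.03 and 3.19. The differences of these 9 genes hold the sort as well. Cdh23 and Pcdh15, the tip link cadherins, differed by 3.98 ± 0.19 and 3.61 ± 0.13 with Dox at day 8, and Tmie, a part of the transduction complex, by 3.66 ± 0.17. The 11 actin core genes were split: 3 higher and 3 lower with Dox at day 8, and 5 higher and 3 lower at day 12. Gsn, the filament-severing gelsolin, differed by 2.40 ± 0.25 at day 8, and the 3 lower genes were Fscn1, Pls3 and Lcp1 at both days.

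Among 7 measured tip genes 3 were higher in each of the 4 comparisons, and 1, 2, 2 and 1 were lower. For the counts of this paragraph, 15.7% to 22.4% of all genes were called higher in these comparisons and 18.9% to 22.4% lower. The counts of lower tip genes lie near the latter shares. Among those lower was the capping protein gene Capza2 with Dox at day 8 (-0.39 ± 0.12, adjusted p = 0.018, singled out after its values were seen). Myo15, the motor that delivers whirlin and Eps8 to the tip, had means of 4.58 and 4.38 in EBs and differed by 3.56 ± 0.29 with Dox at day 8 and 5.10 ± 0.29 with Dox and RA at day 12. Its cargo gene Whrn differed by -0.06 and 0.89 in these 2 comparisons, and Eps8 by -0.04 and -0.74. With Dox at day 12 and with Dox and RA at day 8, Myo15 had means of 8.98 and 9.33. There Whrn differed from EBs by 0.38 and 0.21, and Eps8 by -0.73 and 0.46. Myo3b, the motor that carries espins, differed by 3.29 ± 0.32 with Dox at day 12 and 3.83 ± 0.32 with Dox and RA. Of the 5 measured ankle link and shaft genes 1, 3, 4 and 2 were higher in the 4 comparisons in the order above, and none was lower. Of the 11 genes of the base, taper and membrane 4, 6, 6 and 7 were higher and 2, 2, 3 and 1 lower. Those lower with Dox at day 8 were Msn (-1.78 ± 0.30) and Ezr (-0.97 ± 0.20), which encode the membrane-to-actin linkers moesin and ezrin (named after their values were seen). In this group was the Grxcr1 relative Grxcr2 at 2.66 ± 0.77 with Dox at day 12 (adjusted p = 0.011). Of 6 listed genes of the overlying matrix and its attachment, 0, 0, 1 and 2 were higher and 1 was lower in each. The Strc relative Otoa, 1 of these, was not called in any of the 4.

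RA at day 8 raised 6 of the 10 tip link and transduction genes and 10 of the 50 in all, and lowered 3, where 2.05% of all genes were called higher and 2.89% lower. Among these, Cdh23 rose by 1.10 ± 0.17 (adjusted p = 0.0028), Loxhd1 by 1.83 ± 0.38 (adjusted p = 0.013) and Ush1c by 1.11 ± 0.25 (adjusted p = 0.018), and Pls3 fell by 0.80 (adjusted p = 0.024). At day 12 none of the 50 was called for RA in the fit without a replicate block, and 8 had an unadjusted p under 0.05. All RA and time results of the 50 come from that fit, and none with the block is given. From day 8 to day 12 in Dox iHCs 15 of the 50 rose and 3 fell (3.39% and 4.66% of all genes), with Lhfpl5, a partner of the transduction channel, at 1.83 ± 0.29 (adjusted p = 0.003). In Dox+RA iHCs 2 rose (Myo1c and Ezr, by 0.61 and 0.73) and 3 fell (Fscn1, Clic5 and Pcdh15, by 1.02, 0.69 and 0.51), where 1.78% of all genes rose and 2.61% fell. These 5 are named because they are few. The difference between these time steps was called by limma in none of the 10 tip link and transduction genes, 5 of which had an unadjusted p under 0.05. The share of all genes with such a p was not counted, here or for RA at day 12.

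**Figure D5:**
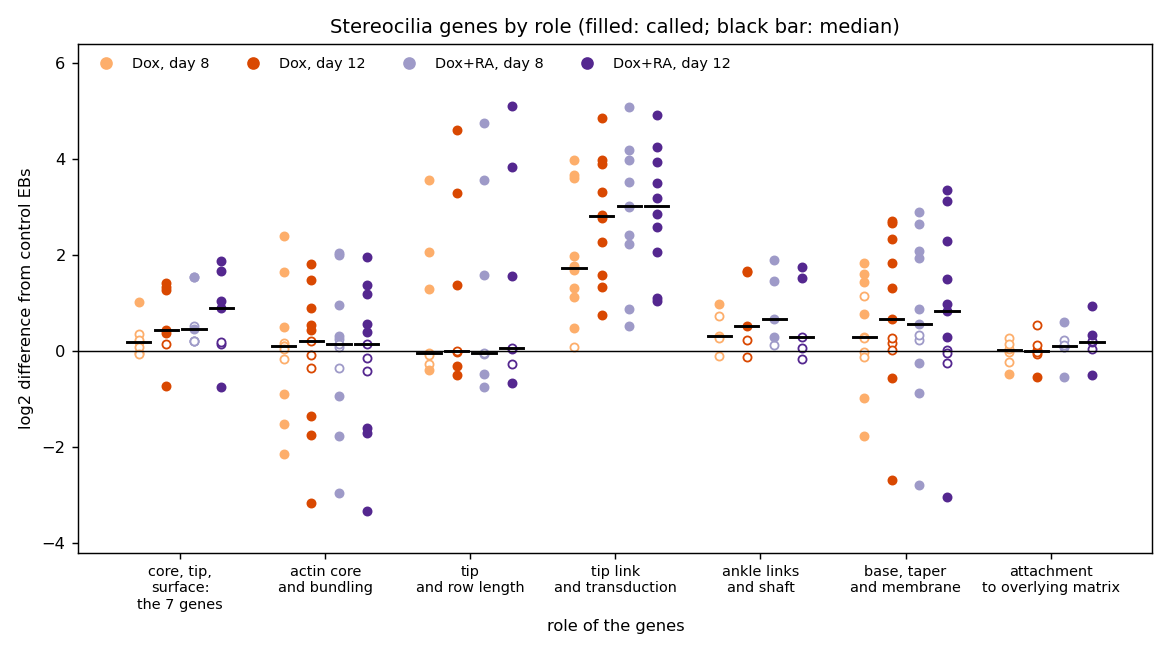
Log2 difference from control EBs of the same day (y axis) of stereocilia and overlying matrix genes grouped by role (x axis). Colours are the 4 iHC groups, filled points are called genes and black bars are medians. Tip link and transduction genes have medians of 1.74 to 3.02, while those of the 7 core, tip and surface genes are 0.19 to 0.89.

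Genes with the most similar pattern over the 16 arrays were found by Pearson correlation among 3519 to 3520 named genes that varied by an SD of at least 0.5. All arrays share the gap between EBs and iHCs, so these values describe the pattern and carry no test. Espn was most like Hagh, Tmem63b and Usp25 (r of 0.988, 0.987 and 0.985). Pls1 was most like Rnf224, Mob3b and Ush1c (0.933, 0.929 and 0.928), and Whrn like Dcdc2a, Smarca5-ps and Cyp2w1 (0.906, 0.905 and 0.905). For Strc the nearest was Ptprq itself (0.861), and Ptprq was nearest to Tspyl5, Rapgef3 and Shisa4 (0.931, 0.921 and 0.913). Eps8 was nearest to Lbh, Crabp1 and Rxfp2 (0.874, 0.819 and 0.808), and Fscn2 reached no more than 0.645, with Hap1. Over the 12 iHC arrays alone, Ptprq and Strc had r of 0.85 and Espn and Pls1 0.79, while Eps8 had -0.42 with Ptprq and 0.09 with Espn.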

How the data were processed

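RNA of 16 samples was hybridised to Affymetrix Mouse Gene 2.1 ST arrays, 1 sample an array. The deposited table holds log2 signals that the authors made by RMA; the submitters' processing notes name Affymetrix Expression Console, with no version. RMA corrects background, quantile-normalises all arrays together and summarises the probes of each row, which forces like distributions on sorted cells and whole EBs and can compress changes at low signal. Of 33708 rows 23521 carry 1 gene symbol, 1814 several and 8373 none. Names come from the platform annotation, and 23328 of the single-symbol rows matched RefSeq by Entrez ID. For the 1082 genes with more than 1 row, the row with the highest mean over all arrays was kept, leaving 22180 genes; each of the 7 reported genes has 1 row.

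A model with 6 group means was fitted to all genes in limma 3.58.1 (R 4.3.3) with empirical Bayes moderation, and p-values were Benjamini-Hochberg adjusted over all genes. Files were read with Python 3.11.15 and pandas 2.3.3, and figures drawn with matplotlib 3.10.9. The fit was tested on simulated data. Alternatives were a variance trend, array weights, the groups of a contrast alone, a filter on dim genes, median centring, other rows per gene, a replicate block and leaving out each array. Positions and the 250 bases before transcript starts come from RefSeq (GRCm38.p6).

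The iHC groups share replicate numbers in the labels. In all 18 pairs of same-numbered iHC arrays the deviations from the group means correlated at over 0.1 (0.147 to 0.513). The numbers were therefore taken to pair the iHC samples, from the data and not from a statement of a shared culture. The main fit leaves this pairing out, so its RA and time results in iHCs ignore it. Calls of the 7 genes that change with the replicate number as a block are given beside those results. Only 5 of 16 same-numbered pairs of an EB and an iHC array were over 0.1, so no pairing was taken there. The labels call the replicates biological without saying what was repeated. The p-values weigh a difference against the spread of arrays within the 6 groups, pooled and moderated over all genes. The genes and lists were chosen with earlier results of these data known. Beside the 7 genes, relatives and some called genes of the stereocilia list with large differences from EBs are named. Tmc1, Capza2, Msn and Ezr were singled out after their values were seen, and other genes are named for RA or time. The number of arrays limits the precision.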

Additional observations from a re-analysis of the deposited data

Results flagged for a closer look

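In the fit without a block, the difference of Eps8 from control EBs differed between the days by its own test, with a call in none of the other 6 genes. With Dox and RA it was 0.46 at day 8 and -0.74 at day 12, and the change between the days was -1.20 on the log2 scale (adjusted p = 0.0078, limma over all genes). It takes in a rise of 0.75 in the control EBs and a difference of -0.45 in the iHCs, which was not called. Across all alternatives but 1 the call held: without control EB day 8 replicate 2 the adjusted p was 0.055. Under alternatives other genes were called as well: Whrn with Dox and RA with array weights (adjusted p = 0.028) and without Dox+RA day 12 replicate 3 (0.024), and Ptprq and Eps8 with Dox in the replicate block (0.0055 and 0.013).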

How the results depend on the processing

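Of the 7 genes' differences in 12 comparisons under the alternatives listed with the methods, 1089 values kept direction and side of the threshold, 31 lost a call, 22 gained one and 54 changed sign. The changes of sign were all in differences that were not called and lay near 0. The cause of these changes was not tested.

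With array weights, 2 of the 7 genes were called for RA at day 12, 3 over time in Dox+RA iHCs and 2 in the Dox+RA interaction with day, and among all genes 2277 were called for RA at day 8, 635 for RA at day 12, 3023 over time in Dox iHCs, 2299 over time in Dox+RA iHCs, and 1021 (Dox), 942 (Dox+RA) and 24 (RA) in the interactions with day. In the fit on the groups of a contrast alone, 1 of the 7 was called for RA at day 8 and 2 over time in Dox+RA iHCs. The all-gene counts of that fit for these comparisons are not given here, so the counts of the 7 have no background. Among all genes it called 29 for RA at day 12, 420 over time in Dox iHCs, 553 over time in EBs, 415 in the Dox interaction and 1 in the RA interaction. The dim filter left 12792 genes, dropped Fscn2, Ptprq and Strc, and left 1 call among the 7 genes over time in Dox iHCs. No all-gene count with the filter is set beside that call. The RA interaction had 1 call with a variance trend and 1 with all rows tested.

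With the replicate block, 2 of the 7 genes were called with Dox at day 8, where no all-gene count with the block is given. It called 2 of the 7 for RA at day 12, 3 over time in Dox+RA iHCs and 2 in the Dox interaction. Among all genes the block gave 2436 calls for RA at day 8, 722 at day 12, 3139 over time in Dox iHCs, 2010 in Dox+RA iHCs, 1255 in EBs, and 1430 (Dox), 1150 (Dox+RA) and 15 (RA) in the interactions. In comparisons with EBs the block called Ptprq at day 8 with Dox (0.38, adjusted p = 0.043) and with Dox and RA (0.69, 0.00087), and Ptprq (1.05, 0.0055) and Eps8 (-0.69, 0.013) in the Dox interaction. There the numbers are not shown to pair the samples: same-numbered EB and iHC arrays correlated at 0.026 to 0.143, over 0.1 in 5 of 16 pairs. The block changed no other call of the 7 genes than these and those given beside the results.

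Fscn2 turned to -0.01 for RA at day 8, 0.01 over time in Dox+RA iHCs and 0.01 in the RA interaction with array weights, and to -0.01 for RA at day 12, 0.01 over time in Dox iHCs, 0 in EBs and 0.01 in the Dox interaction with median centring. Strc turned to 0.04 and 0.02 in the Dox+RA interaction under these 2 settings.

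Leaving out 1 array at a time gave 0 to 2 of the 7 genes and 333 to 1559 genes in all for RA at day 8, 0 to 1 and 55 to 393 for RA at day 12, 1 to 3 and 644 to 2598 over time in Dox iHCs, 297 to 998 genes over time in Dox+RA iHCs and 0 to 1 and 317 to 951 in EBs. The Dox interaction gave 266 to 1068 genes, the Dox+RA interaction 0 to 2 of the 7 and 268 to 686 genes, and the RA interaction 1 to 15 genes. Where an arm was left with 1 array, that array was taken to vary like the others. Differences that crossed 0 ranged, against EBs with Dox at day 8, from -0.20 to 0.07 (Whrn), -0.14 to 0.06 (Eps8) and -0.03 to 0.21 (Strc). For RA they ranged from -0.04 to 0.12 (Fscn2, day 8) and, at day 12, -0.06 to 0.10 (Fscn2), -0.09 to 0.06 (Eps8) and -0.40 to 0.06 (Ptprq). Over time they ranged from -0.12 to 0.09 (Fscn2) and 0 to 0.16 (Eps8) in Dox iHCs, -0.13 to 0.03 (Fscn2) in Dox+RA iHCs, and -0.32 to 0.07 (Espn), -0.03 to 0.10 (Fscn2) and -0.02 to 0.25 (Whrn) in EBs. In the interactions they ranged from -0.15 to 0.05 (Fscn2, Dox), -0.11 to 0.36 (Pls1) and -0.14 to 0.10 (Strc) with Dox+RA, and -0.15 to 0.05 (Espn) and -0.12 to 0.08 (Fscn2) for RA.

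The EB groups have 2 arrays each, so the comparisons with EBs rest on few controls. The dim filter removes Fscn2, Ptprq and Strc, so that setting says nothing of them.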
